A study of Mus musculus with 87 samples.

Results

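Dbp, Tef, Hlf, Nfil3, Bhlhe40, Bhlhe41 and Rora encode transcription factors that carry the phase of the circadian clock to other genes of the liver. They were selected by gene name as known clock output factors, and each was found as 1 protein-coding gene, 7 of the 37991 genes of the deposited RNA-Seq table. The clock itself is a loop in which Arntl (BMAL1) and Clock bind E-boxes and activate the Per, Cry and Nr1d genes, whose products then repress the loop. Dbp, Tef and Hlf form the PAR bZIP family of activators, which bind D-box elements, also in genes for drug metabolism and bile acid synthesis, and Nfil3 (E4BP4) is a bZIP repressor that binds the same elements. Bhlhe40 and Bhlhe41 (DEC1 and DEC2) are repressors that bind E-boxes and also respond to many signals from outside the cell, while Rora is a nuclear receptor that activates genes through ROR elements.

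Poly(A) RNA of individual livers of male C57BL/6 mice was measured after partial hepatectomy (PH, the removal of most of the liver, labeled X), after sham surgery (a laparotomy without resection, labeled S) or without surgery (labeled C). The mice were 12 to 14 weeks old at the time of surgery. All mice had been entrained to 12 h of light and 12 h of dark with food in the dark only, and Zeitgeber time (ZT) counts the hours from lights on. Surgery was at ZT2, so 1 h after surgery is ZT3, 4 and 28 h are ZT6, 10 h is ZT12, 36 h is ZT14, 20 and 44 h are ZT22, and 48 and 72 h are ZT2 again. The unoperated livers were C0 (0 h, ZT2, n = 9), C4 (ZT6, n = 3) and C4W (matched to 4 weeks, n = 2). The sham groups were S1 (n = 6), S4 (n = 5), S10 (n = 3), S20 (n = 3) and S48 (n = 3), named by the hour. The PH groups were X1 (n = 6), X4 (n = 3), X10 (n = 6), X20 (n = 6), X28 (n = 3), X36 (n = 6), X44 (n = 3), X48 (n = 5) and X72 (n = 3), then X1W (1 week, n = 3) and X4W (4 weeks, n = 2), where ZT2 was taken from whole days. These 80 livers in 19 groups have values in the table, and 7 further labelled livers (3 of X4, 3 at 60 h and 1 of X4W) were not analysed here.

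Estimated depth ran from 12.2 to 48.9 M reads per library, with a median of 26.7 M reads. The 5 hepatocyte markers were high in all libraries (Alb at 16100 RPKM or more), and those of pancreas acinar cells stayed at a sum of 0.339 RPKM or less. C0 replicate 8 had the highest summed macrophage markers (138 RPKM, against 81.8 RPKM in the next library) and the highest summed neutrophil markers (51.2 RPKM, against 41.9 RPKM). No call of a member changed without this library. The mice were handled in 3 experimental periods. Livers of C0 came from each of them, C4 from 1 period that holds no operated mouse, and S10 and S20 from 1 of the 2 periods of X10 and X20, and which replicate numbers belong to which period is not given in the sources used here. In all bulk values below, fewer cells of a type and less RNA per cell cannot be told apart.

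Sequence before the transcription start is shown for the members whose window held a match to a clock-related motif, and for Dbp, whose level moved most. RefSeq windows (GRCm38.p6) of 300 bases, 250 before and 50 after a start, were found for 6 of the 7 members (7 windows, 2 of them for Tef). Searched on both strands were the E-box CACGTG (in 7.15% of all 32851 windows), its variant CACGTT (4.68%), the D-box TTANGTAA (2.32%) and the core of the ROR element TNGGTCA (11%), of which no 2 matches overlapped here. Tef had an E-box at -127 to -122 from one start and at -138 to -133 from the other, and Bhlhe41 had one at -153 to -148. A ROR element core lay at -12 to -6 in Nfil3 and at -219 to -213 in the second Tef window. In the windows of Dbp, Hlf and Rora these letters were not found, and no window held CACGTT or the D-box. The 250 bases before each start follow, 5′ to 3′ on the strand of the gene, with matches in capitals, from chr7:45704997-45705246 (+) for Dbp, chr15:81802423-81802672 (+) and chr15:81811164-81811413 (+) for Tef, chr13:52981040-52981289 (-) for Nfil3 and chr6:145865421-145865670 (-) for Bhlhe41.
Dbp: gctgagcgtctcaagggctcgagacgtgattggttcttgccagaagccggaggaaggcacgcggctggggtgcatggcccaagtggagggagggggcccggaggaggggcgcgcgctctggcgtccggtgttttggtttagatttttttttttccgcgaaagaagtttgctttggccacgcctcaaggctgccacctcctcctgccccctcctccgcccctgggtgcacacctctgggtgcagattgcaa
Tef, first start: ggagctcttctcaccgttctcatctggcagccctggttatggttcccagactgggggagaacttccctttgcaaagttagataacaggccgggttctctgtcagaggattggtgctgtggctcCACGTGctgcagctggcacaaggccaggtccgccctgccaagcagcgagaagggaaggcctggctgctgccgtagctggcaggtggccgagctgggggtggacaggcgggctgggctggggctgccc
Tef, second start: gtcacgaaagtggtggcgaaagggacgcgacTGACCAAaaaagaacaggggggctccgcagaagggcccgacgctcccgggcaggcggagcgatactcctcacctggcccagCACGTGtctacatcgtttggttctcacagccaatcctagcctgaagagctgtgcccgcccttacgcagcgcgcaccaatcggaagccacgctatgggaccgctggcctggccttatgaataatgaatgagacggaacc
Nfil3: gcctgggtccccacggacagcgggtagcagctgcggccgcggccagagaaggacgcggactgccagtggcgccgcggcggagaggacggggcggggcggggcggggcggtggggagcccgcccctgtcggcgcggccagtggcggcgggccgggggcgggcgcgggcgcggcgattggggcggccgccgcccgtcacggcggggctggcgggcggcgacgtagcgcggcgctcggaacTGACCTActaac
Bhlhe41: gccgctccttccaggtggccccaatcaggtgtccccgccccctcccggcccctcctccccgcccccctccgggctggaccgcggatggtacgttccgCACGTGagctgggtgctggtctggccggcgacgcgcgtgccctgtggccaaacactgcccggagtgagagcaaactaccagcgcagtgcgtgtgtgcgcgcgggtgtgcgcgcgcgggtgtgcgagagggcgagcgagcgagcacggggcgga

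Dbp (chr7:52960458-52965525 in mm9, + strand), the activator named for the albumin promoter D-box, had the widest range of the 7 members, from 0.0761 to 45.8 RPKM (reads per kilobase of exons, scaled to the reads of the library). At ZT2 before surgery its lowest, median and highest levels in the C0 livers were 0.108, 0.294 and 0.407 RPKM. At ZT6 without surgery the C4 livers had 32.2, 8.36 and 45.8 RPKM. None of the C4 livers came near the C0 range, and C4 replicate 2 was well below the other C4 livers. After sham surgery Dbp had a median of 0.176 RPKM in S1 (0.110 to 0.307 RPKM), then 0.415, 0.520, 1.15, 0.873 and 1.36 RPKM in S4, 22.6, 23.3 and 19 RPKM in S10, 0.579, 0.902 and 0.376 RPKM in S20 and 0.335, 0.327 and 0.112 RPKM in S48. After PH it had a median of 0.129 RPKM in X1 (0.0761 to 0.211 RPKM), then 0.157, 0.215 and 0.326 RPKM in X4, and a median of 6.75 RPKM in X10 (5.56 to 17.8 RPKM) and of 0.334 RPKM in X20 (0.158 to 0.488 RPKM). Both series were thus low at 1 and 4 h, high at ZT12 and low again at ZT22. On the second day after PH, Dbp had 6.52, 3.62 and 1.68 RPKM in X28, a median of 14.4 RPKM in X36 (7.62 to 20.8 RPKM) and 0.402, 0.262 and 0.215 RPKM in X44. It then stayed between 0.128 and 0.816 RPKM in X48, X72 and X1W, and had 0.223 and 0.604 RPKM in X4W and 0.753 and 0.510 RPKM in C4W. In order of group mean, C4 (28.8 ± 18.95 RPKM, SD), S10 (21.6 ± 2.31 RPKM), X36 (13.8 ± 4.64 RPKM), X10 (8.65 ± 4.58 RPKM) and X28 (3.94 ± 2.44 RPKM) came first, and each overlapped its neighbor in this order. All 14 other groups were below 1 RPKM on average.

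**Figure D1:**
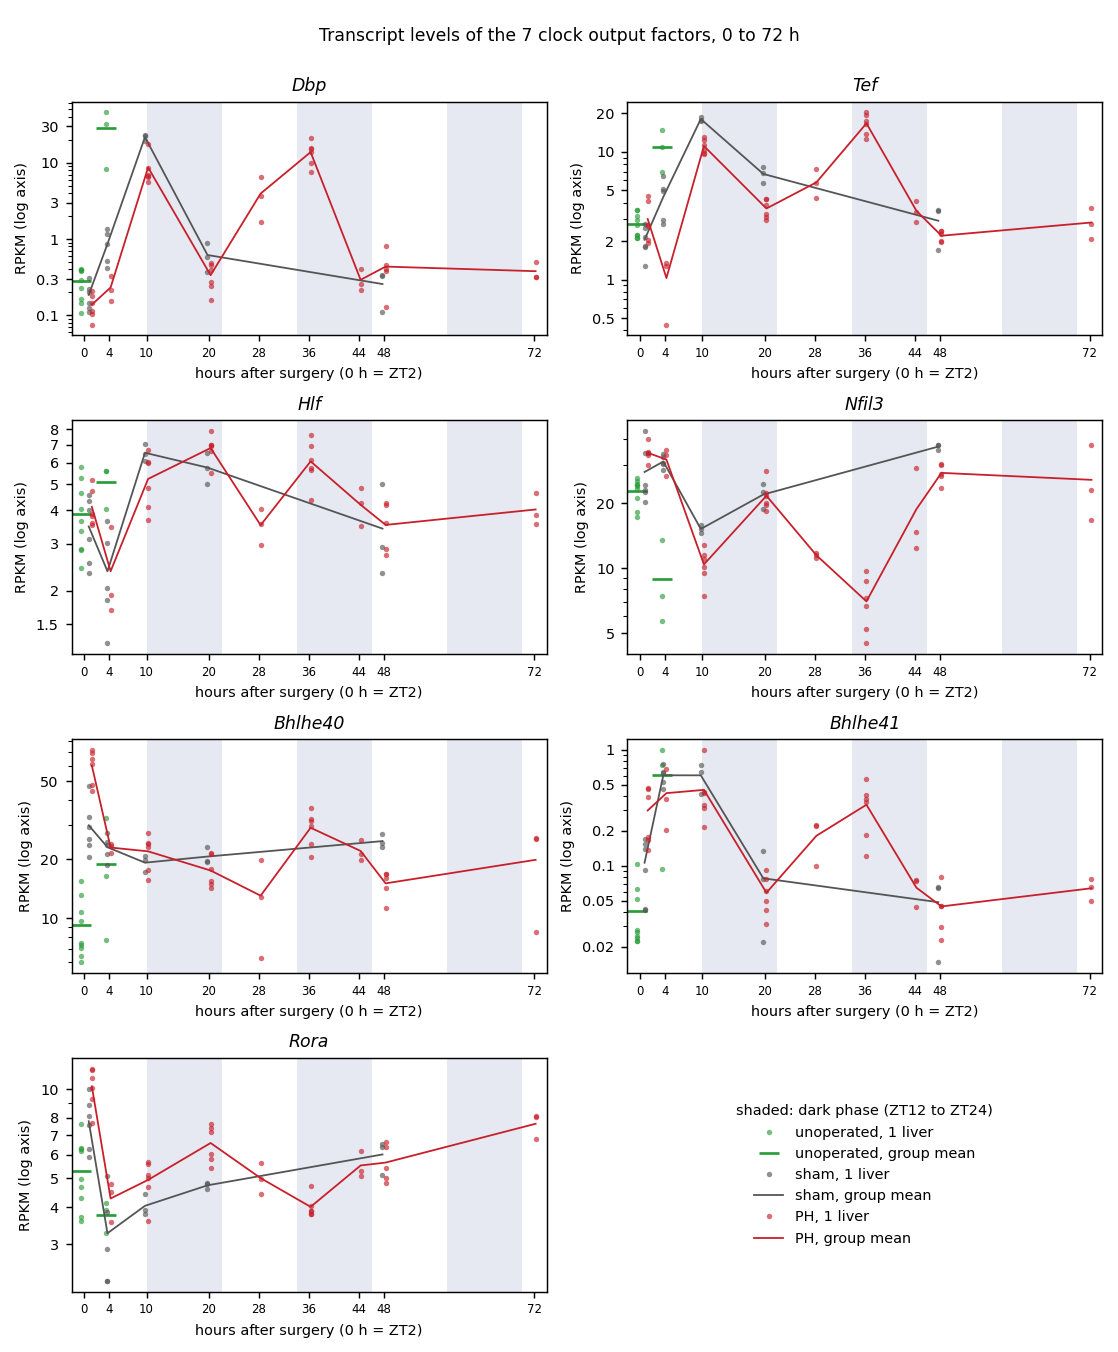
Transcript levels of the 7 members (RPKM, log axis, 1 panel per gene) against hours after surgery from 0 to 72 h, with 1 point per liver, lines through the means of the sham (gray) and PH (red) groups, short green bars for the means of the unoperated groups at 0 and 4 h, and the dark phase shaded. After PH, Dbp and Tef peaked at 10 and 36 h and Nfil3 was lowest at those hours, while Bhlhe40 was highest at 1 h after PH (44.8 to 72.1 RPKM).

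Tef (chr15:81632851-81657291 in mm9, + strand), the second PAR bZIP activator, followed Dbp with smaller swings. It had a median of 2.67 RPKM in C0 (2.10 to 3.52 RPKM) and 10.8, 6.98 and 14.9 RPKM in C4, so C4 again stood above C0 without overlap. After sham surgery the medians or values were 1.98 RPKM in S1 (1.28 to 2.73 RPKM), then 2.91, 2.74, 5.08, 4.95 and 6.48 RPKM in S4, 17.5, 18.8 and 17.8 RPKM in S10, 6.85, 7.58 and 5.69 RPKM in S20 and 3.44, 3.52 and 1.70 RPKM in S48. After PH they were 2.65 RPKM in X1 (1.94 to 4.50 RPKM), 0.445, 1.36 and 1.28 RPKM in X4, 10.8 RPKM in X10 (9.62 to 13.1 RPKM) and 3.52 RPKM in X20 (2.95 to 4.26 RPKM). The X4 livers were at or below 1.36 RPKM, a range that held 1 other liver, from S1. The second day after PH gave 7.28, 5.67 and 4.35 RPKM in X28, a median of 16.9 RPKM in X36 (12.6 to 20.4 RPKM) and 4.13, 3.39 and 2.83 RPKM in X44. X48, X72, X1W and X4W lay between 1.98 and 4.02 RPKM, near C0, and C4W had 4.17 and 4.48 RPKM.

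Hlf (chr11:90197849-90252231 in mm9, - strand), the third PAR bZIP activator, varied least of the family, from 1.27 to 7.89 RPKM. It was lowest 4 h after either surgery, with 1.27, 2.04, 1.85, 3.02 and 3.63 RPKM in S4 and 1.70, 3.46 and 1.93 RPKM in X4, against 5.61, 4.02 and 5.59 RPKM in C4. The highest group mean was at ZT22 on the first night after PH (X20, 6.82 ± 0.776 RPKM, SD, n = 6), followed by S10 (6.55 ± 0.464 RPKM, n = 3), X36 (6.08 ± 1.13 RPKM, n = 6) and S20 (5.76 ± 0.775 RPKM, n = 3). These neighbors overlapped in range. In C0 the replicates did not form one level, since replicates 4 to 6 (5.79, 4.62 and 5.29 RPKM) stood above replicates 7 to 9 (2.44, 2.85 and 2.84 RPKM).

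Nfil3 (chr13:53062578-53076442 in mm9, - strand), the repressor of D-box genes, ran opposite to Dbp and Tef. It had a median of 24.2 RPKM in C0 (17.4 to 26.2 RPKM) and 7.44, 13.5 and 5.73 RPKM in C4. The C4 liver with the least Dbp and Tef, replicate 2, thus had the most Nfil3. After sham surgery its median was 23.8 RPKM in S1 (20.3 to 43.3 RPKM), with 30.4, 33.8, 28.6, 30.7 and 32.9 RPKM in S4, 15.2, 15.9 and 14.6 RPKM in S10, 22.6, 24.6 and 18.8 RPKM in S20 and 37.2, 37.5 and 35.4 RPKM in S48. After PH there were 34.2 RPKM in X1 (median, 30.2 to 39.7 RPKM), 33.5, 35.5 and 26.8 RPKM in X4, 10.6 RPKM in X10 (median, 7.47 to 12.8 RPKM) and 20.8 RPKM in X20 (median, 18.4 to 28.3 RPKM). S4 and X4 overlapped, and both were more than the highest C4 liver. X28 was tight at 11.2, 11.8 and 11.5 RPKM, X36 was lowest of all groups with a median of 6.98 RPKM (4.49 to 9.71 RPKM), and X44 spread over 12.4, 14.8 and 29.3 RPKM. X48 lay between 23.7 and 30.5 RPKM and X72 spread over 16.8, 37.4 and 23.0 RPKM.

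Bhlhe40 (chr6:108610623-108616919 in mm9, + strand), an E-box repressor also known as an early response gene, was highest 1 h after PH. X1 had a lowest, median and highest level of 44.8, 63.1 and 72.1 RPKM, against 20.5, 27.3 and 47.1 RPKM in S1 and 5.96, 7.52 and 15.5 RPKM in C0. All but 1 of the S1 livers were below the X1 range, and both groups were above all C0 livers. From 4 to 20 h after either surgery it lay between 14.2 and 27.1 RPKM. C4 spread widely with 16.4, 7.76 and 32.3 RPKM, X28 with 19.9, 12.9 and 6.30 RPKM and X72 with 25.3, 8.47 and 25.8 RPKM. X36 had a median of 30.4 RPKM (20.6 to 36.3 RPKM), S48 had 23.0, 24.2 and 27.0 RPKM, and X1W, X4W and C4W lay between 6.86 and 11.9 RPKM, within the range of C0.

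Bhlhe41 (chr6:145806763-145814078 in mm9, - strand), its close relative, was scarce, with 0.0147 to 0.998 RPKM and 2 to 198 estimated reads per library, and only 22 of the 80 libraries passed the detection threshold of -1.5 (log2 RPKM). It had a median of 0.0268 RPKM in C0 (0.0224 to 0.104 RPKM) and 0.741, 0.0932 and 0.998 RPKM in C4, where replicate 2 was within the C0 range. At 1 h after surgery it had a median of 0.116 RPKM in S1 (0.0416 to 0.169 RPKM) and 0.286 RPKM in X1 (0.138 RPKM or more), where every X1 liver was above C0. S4 had 0.645, 0.529, 0.464, 0.748 and 0.632 RPKM, X4 had 0.380, 0.203 and 0.687 RPKM, S10 had 0.644, 0.746 and 0.419 RPKM and X10 had a median of 0.379 RPKM (0.216 to 0.993 RPKM). X1 overlapped X4 and X10 in range, and S1 was below all of S4 and S10. At ZT22 (S20, X20 and X44) all libraries were at 0.135 RPKM or less, and X36 returned to a median of 0.367 RPKM (0.122 to 0.563 RPKM).

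Rora (chr9:68501593-69236053 in mm9, + strand), the nuclear receptor, stayed between 2.25 and 11.7 RPKM. It was highest 1 h after surgery, with a lowest, median and highest level of 7.71, 10.5 and 11.7 RPKM in X1 and of 5.92, 7.84 and 10.0 RPKM in S1, against 3.6, 4.99 and 7.65 RPKM in C0. X1 overlapped S1 but not C0. By 4 h the levels were 3.86, 2.88, 5.08, 2.25 and 2.26 RPKM in S4 and 4.49, 4.79 and 3.55 RPKM in X4, close to the 4.14, 3.92 and 3.26 RPKM of C4. At 72 h after PH there were 6.77, 8.04 and 8.11 RPKM. As for Hlf, C0 replicates 4 to 6 (6.33, 6.30 and 7.65 RPKM) stood above replicates 7 to 9 (3.6, 4.29 and 3.71 RPKM).

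To separate the time of day from surgery, unoperated livers were first compared at ZT6 and ZT2 (C4 against C0). C4 came from only a part of the experimental periods of C0, so time of day and period cannot be fully told apart here. Calls needed an adjusted p under 0.05 and a difference of more than 0.5 between means of log2(RPKM + 0.25), where the added 0.25 makes the change of low genes such as Dbp in C0 and Bhlhe41 look smaller. Dbp rose by 5.50 ± 0.31 (log2, SE; limma, adjusted p = 1.782e-22), 103 times in mean RPKM, and Tef rose by 1.87 ± 0.23 (adjusted p = 2.74e-08), while Nfil3 fell by 1.41 ± 0.20 (adjusted p = 8.78e-07). Bhlhe41 rose by 1.38 ± 0.22 (adjusted p = 1.539e-05) and Bhlhe40 by 0.85 ± 0.26 (adjusted p = 0.02058). In all, 4 members rose and 1 fell, where 7.89% of the 15396 genes tested were called. The Bhlhe40 call was lost without C4 replicate 1 (0.84, adjusted p = 0.0673) or replicate 3 (0.35, adjusted p = 0.463), and with C0 replicates 4 to 6 alone (0.30, adjusted p = 0.537). It was also lost with C0 replicates 7 to 9 alone (0.97, adjusted p = 0.0875) and in a fit of the 2 groups alone (adjusted p = 0.221). Hlf (0.40 ± 0.21) and Rora (-0.43 ± 0.16) were not called, but against C0 replicates 4 to 6 alone Rora was (-0.80, adjusted p = 5.88e-06).

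Does surgery alter the members at one time of day? At ZT6, 4 h after either surgery, the 3 PAR bZIP activators were below their unoperated levels and Nfil3 was above them. In S4 against C4, Dbp fell by 4.48 ± 0.34 (adjusted p = 4.09e-17) and Tef by 1.26 ± 0.25 (adjusted p = 1.962e-05). Hlf fell by 1.09 ± 0.23 (adjusted p = 4.806e-05), and Nfil3 rose by 1.88 ± 0.21 (adjusted p = 4.366e-11). Thus 3 members fell and 1 rose against 43.3% of all genes called. In X4 against C4 the called members were again Dbp (-5.62 ± 0.38, adjusted p = 2.453e-19), Tef (-3.16 ± 0.28, adjusted p = 8.468e-15), Hlf (-1.07 ± 0.26, adjusted p = 0.000305) and Nfil3 (1.90 ± 0.24, adjusted p = 7.521e-10), with 45.6% of all genes called. None of these 4 genes shared a value in either comparison (same C4 livers), but the share of all genes without overlap was not computed. Bhlhe40, Bhlhe41 and Rora were not called in either, but Bhlhe40 was called higher without C4 replicate 3 (1.00 in both, adjusted p = 0.00493 and 0.00952), and Bhlhe41 lower in X4 without C4 replicate 2 (-0.79, adjusted p = 0.00738). Rora was called lower in S4 with replicates 4 to 6 alone (-0.68, adjusted p = 0.000114, against -0.25 with all S4 livers). Only 2 S4 livers have these numbers (2.25 and 2.26 RPKM). The median change of all genes was -0.22 in S4 and -0.26 in X4, and with equal library medians Bhlhe40 was called higher in both (0.71, adjusted p = 0.0243, and 0.76, adjusted p = 0.0329).

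Surgery at ZT6 and the experimental period cannot be told apart in these contrasts, since C4 came from a period without operated mice. Marker genes moved as well: the summed hepatocyte markers (5 of 5 found) were 45000 to 50400 RPKM in C4, 31200 to 43500 RPKM in S4 and 33600 to 35400 RPKM in X4. Summed neutrophil markers (5 of 5 found, with Camp, Ngp and Retnlg at 0 in some libraries) were 1.02 to 4.88 RPKM in C4, 6.85 to 41.9 RPKM in S4 and 4.36 to 9.25 RPKM in X4. The part of these cells in the changes of the members was not tested.

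**Figure D2:**
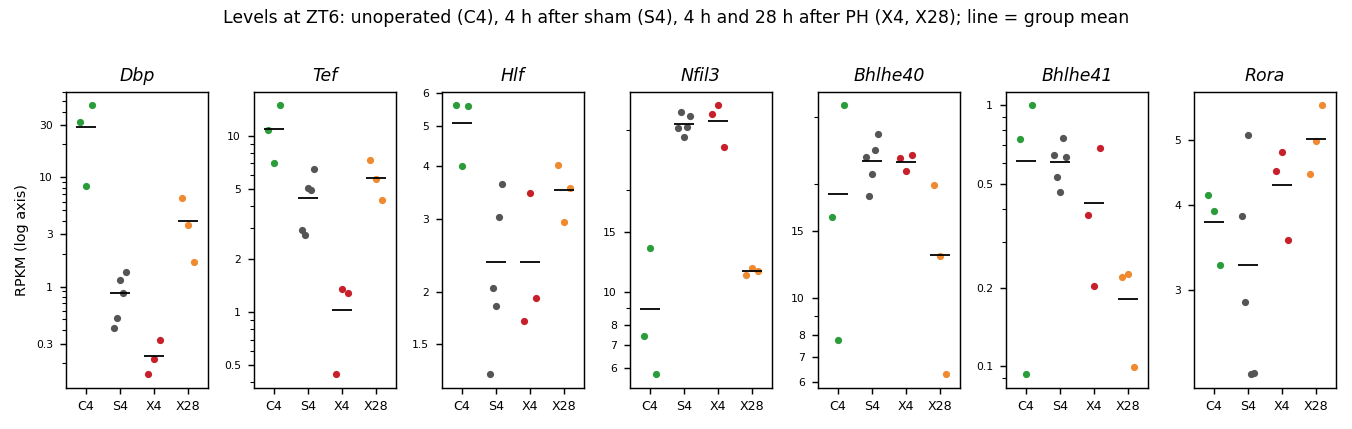
Levels of the 7 members at ZT6 (RPKM, log axis, 1 panel per gene) in unoperated livers (C4), 4 h after sham surgery (S4) and 4 and 28 h after PH (X4 and X28), with 1 point per liver and a line at each group mean. Dbp was between 8.36 and 45.8 RPKM in C4, 0.415 and 1.36 RPKM in S4, 0.157 and 0.326 RPKM in X4 and 1.68 and 6.52 RPKM in X28, with no shared value.

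One day later at the same ZT6, the levels after PH had moved back toward those of C4 but not for all members. Between X4 and X28, Dbp rose by 2.95 ± 0.38 (adjusted p = 5.28e-09) and Tef by 2.30 ± 0.28 (adjusted p = 1.317e-09). Nfil3 fell by 1.45 ± 0.24 (adjusted p = 1.892e-06) and Bhlhe40 by 0.94 ± 0.32 (adjusted p = 0.01552), giving 2 members higher and 2 lower with 28.3% of all genes called and a median change of all genes of 0.20. The fall of Bhlhe40 rested on X28 replicate 3 (6.30 RPKM) and was -0.51 without it (adjusted p = 0.257), whereas Hlf (0.86, adjusted p = 0.0124) and Bhlhe41 (-0.85, adjusted p = 0.0184) were called without X4 replicate 5. Against C4, X28 was lower for Dbp (-2.66 ± 0.38, adjusted p = 5.662e-08), Tef (-0.85 ± 0.28, adjusted p = 0.01027) and Bhlhe41 (-0.81 ± 0.27, adjusted p = 0.009787), where 32.7% of all genes were called. Of these, Dbp alone shared no value between the groups. Tef lost its call without C4 replicate 3 (-0.60, adjusted p = 0.117) or X28 replicate 3 (-0.68, adjusted p = 0.0777), and Bhlhe41 without C4 replicate 1 (-0.61, adjusted p = 0.0919), C4 replicate 3 (-0.45, adjusted p = 0.206) or X28 replicate 3 (-0.67, adjusted p = 0.0646). Without C4 replicate 2, Nfil3 (0.79, adjusted p = 0.0102) and Bhlhe40 (-0.95, adjusted p = 0.0191) were called too. Nfil3 in X28 otherwise differed from C4 by 0.45 ± 0.24, which was not called. X28 came from 1 experimental period and C4 from another, so PH and period cannot be told apart between them. X4 came from 2 periods, and which of these holds the livers analysed is not given in the sources used here.

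The effect of resection itself was measured by PH against sham at the same hour. At 1 h, Bhlhe40 was 1.04 ± 0.23 higher in X1 than in S1 (adjusted p = 0.00651), 2.02 times in mean RPKM, and was the 1 member called, against 0.65% of all genes. In a fit of X1 and S1 alone its adjusted p was 0.0757, and with replicates 4 to 6 alone the difference was 0.66 (adjusted p = 0.3), while with replicates 1 to 3 alone Rora was called too (0.77, adjusted p = 0.000287). The summed neutrophil markers were 8.26 to 19.3 RPKM in X1 and 2.39 to 11.7 RPKM in S1, and their part was not tested. Bhlhe41 (0.59 ± 0.19, adjusted p = 0.1517), Tef (0.46 ± 0.20, adjusted p = 0.42) and Rora (0.39 ± 0.14, adjusted p = 0.2814) had higher means in X1 without being called.

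At 4 h, Tef was 1.90 ± 0.25 lower after PH than after sham surgery (adjusted p = 8.83e-08), at 0.232 times its mean RPKM, and kept this call in each alternative tried. Dbp was 1.14 ± 0.34 lower (adjusted p = 0.01428), with no shared value, but lost the call without X4 replicate 4 (-1.02, adjusted p = 0.0828) or replicate 5 (-1.12, adjusted p = 0.0568). Its difference also depended on the pseudocount, being -0.57 with 1 RPKM added (adjusted p = 0.144), and in a fit of the 2 groups alone its adjusted p was 0.0641. The 2 calls compare with 8.64% of all genes. Hlf, Nfil3 and Bhlhe40 differed by 0.02 or less with SEs of 0.21 to 0.29. Rora (0.42 ± 0.18) was not called, and was called without S4 replicate 3 (0.58, adjusted p = 0.0196) and with replicates 4 to 6 alone (0.84, adjusted p = 6.52e-05). The latter fit leaves only 2 S4 livers.

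At the ZT12 peak, 10 h after surgery, Dbp was 1.41 ± 0.33 lower after PH (adjusted p = 0.002083), at 0.400 times the sham level, with every X10 liver below every S10 liver. With X10 replicates 4 to 6 alone it was -1.07 and lost the call (adjusted p = 0.0659), as did Tef (-0.61, adjusted p = 0.117), while Nfil3 was called lower (-0.75, adjusted p = 0.0343). Tef was 0.69 ± 0.24 lower (adjusted p = 0.04928), also without overlap, and lost this call without any 1 of the S10 livers (adjusted p between 0.11 and 0.166). Against the 2 members lower, 7.02% of all genes were called. Without X10 replicate 1, 2, 3 or 5 the call of Tef was lost as well (-0.65 to -0.70, adjusted p between 0.0605 and 0.0977). Nfil3, at 7.47 to 12.8 RPKM in X10 and 14.6 to 15.9 RPKM in S10, shared no value and had a change of -0.55 ± 0.21 (adjusted p = 0.06937), with a call without X10 replicate 2 (-0.62, adjusted p = 0.049). Activators and repressor of the D-box thus both had lower means after PH at this hour. S10 came from only a part of the experimental periods of X10, so resection and period cannot be fully told apart here.

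At 20 h Tef was 0.86 ± 0.24 lower in X20 than in S20 (adjusted p = 0.01261), the 1 member called against 7.11% of all genes, with no shared value. The call was lost without S20 replicate 1 (-0.84, adjusted p = 0.0635) or replicate 2 (-0.77, adjusted p = 0.0822), and with X20 replicates 4 to 6 alone (-0.67, adjusted p = 0.0762). With X20 replicates 1 to 3 alone Rora was higher (0.62, adjusted p = 0.00142). S20 likewise came from only a part of the periods of X20, so resection and period cannot be fully told apart at 20 h. At 48 h Bhlhe40 was 0.72 ± 0.29 lower in X48 than in S48 (adjusted p = 0.0354), where 27.2% of all genes were called and the median of all genes was 0.27 higher. It lost this call without any 1 of the S48 livers (adjusted p between 0.0644 and 0.111), X48 replicate 1 (-0.70, adjusted p = 0.0541) or X48 replicate 3 (-0.62, adjusted p = 0.0883). Relative to that shift of all genes, with equal library medians, Tef (-0.74, adjusted p = 0.0124), Nfil3 (-0.86, adjusted p = 0.00123) and Rora (-0.54, adjusted p = 0.0074) were lower in X48 too.

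**Figure D3:**
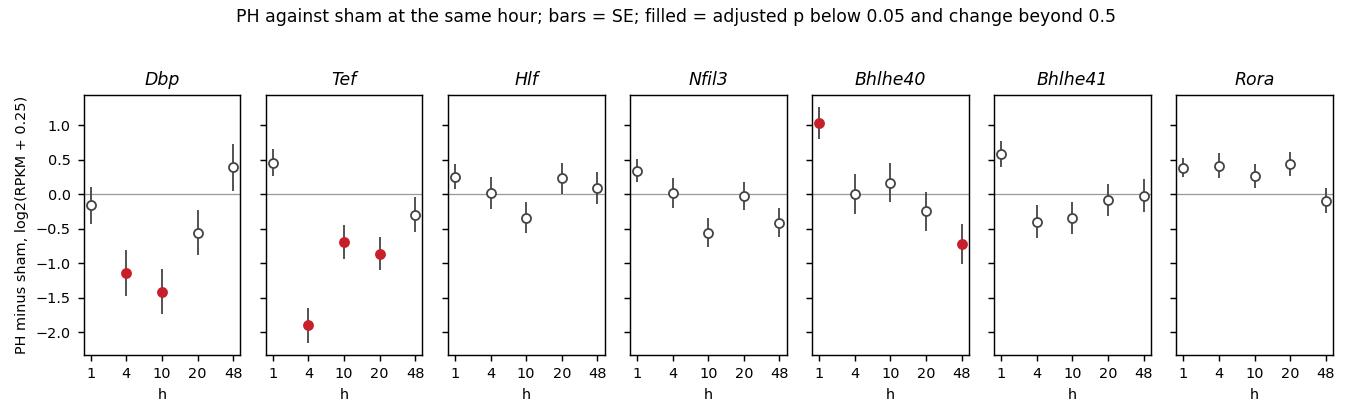
Difference between PH and sham groups of the same hour (1, 4, 10, 20 and 48 h) on the log2(RPKM + 0.25) scale for each member, with bars of 1 SE and filled points for called differences. Called differences were those of Tef at 4, 10 and 20 h and Dbp at 4 and 10 h, all below 0, and of Bhlhe40 at 1 h (1.04) and 48 h (-0.72). Dbp at 1 h (-0.16) and 20 h (-0.55) and Tef at 48 h (-0.30) were below 0 without being called.

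Whether the difference between PH and sham depended on the hour was tested by the interaction of surgery and time over 1, 4, 10, 20 and 48 h. It passed for 5 members, Tef (adjusted p = 4.019e-07), Bhlhe40 (adjusted p = 0.0009345), Dbp (adjusted p = 0.006328), Bhlhe41 (adjusted p = 0.02434) and Nfil3 (adjusted p = 0.03168), where 41.4% of all genes passed. Hlf (adjusted p = 0.4099) and Rora (adjusted p = 0.2832) did not pass. Nfil3 lost this call without 1 of S1 replicates 1, 2 or 3, S10 replicates 1 or 2, X1 replicate 2 or X10 replicate 6 (adjusted p up to 0.0631). Bhlhe41 lost it without 1 of S1 replicates 1 or 6, X1 replicates 2, 3 or 6 or X4 replicate 5 (adjusted p up to 0.062). Dbp, Tef and Bhlhe40 kept it whichever library was left out. Without a filter on low values Nfil3 (adjusted p = 0.084) and Bhlhe41 (adjusted p = 0.0622) lost it, and with equal library medians Rora passed (adjusted p = 0.00179).

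Cosine curves of 24 h were then fitted to the values of the single livers in 3 series. These are sham (S1 to S48, n = 20 livers), PH at the same hours (n = 26) and PH from 28 to 72 h (n = 20). Both PH series include the X48 livers. The amplitude is the height of the curve above its middle on the log2(RPKM + 0.25) scale. In the sham series and in PH at the same hours, each time of day was sampled at its own hour after surgery. From 28 to 72 h only ZT2 was sampled at more than a single hour. A response to surgery and a rhythm of the time of day thus cannot be told apart in these fits. Dbp had amplitudes of 3.00 ± 0.15 after sham surgery and 2.23 ± 0.18 after PH, with peaks at ZT 13.8 ± 0.22 h and 13.7 ± 0.41 h, and its amplitude ranked 8 and 24 among the 15396 genes. Tef peaked after Dbp, at ZT 14.9 ± 0.37 h and 15.4 ± 0.55 h, with amplitudes of 1.69 ± 0.16 and 1.34 ± 0.20. Hlf peaked last of the 3 activators, at ZT 17.2 ± 0.59 h and 18.2 ± 0.39 h, with amplitudes of 0.94 ± 0.18 and 0.82 ± 0.12. The fitted peaks of the family thus came in the same order in both series. Nfil3 peaked early in the light, at ZT 3.56 ± 0.69 h and 3.02 ± 0.31 h, with amplitudes of 0.62 ± 0.12 and 0.95 ± 0.07. Bhlhe41 peaked at ZT 10.5 ± 0.55 h and 9.47 ± 0.74 h.

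The rhythm passed its test in the sham series for Dbp (adjusted p = 3.253e-09), Tef (adjusted p = 2.956e-06), Bhlhe41 (adjusted p = 2.847e-05), Nfil3 (adjusted p = 0.001056) and Hlf (adjusted p = 0.001151). These 5 of 7 members compare with 56.4% of all genes, and neither Bhlhe40 (adjusted p = 0.05359) nor Rora (adjusted p = 0.0687) passed. Bhlhe40 passed without S1 replicate 1 (adjusted p = 0.0383), S1 replicate 4 (adjusted p = 0.0253) or S4 replicate 2 (adjusted p = 0.0366). With equal library medians all 7 members passed, Bhlhe40 with an amplitude of 0.54 (adjusted p = 0.000475, against 0.31 as deposited) and Rora with 0.57 (adjusted p = 0.0164). Both also passed among genes with a mean log2 RPKM above 0 (adjusted p = 0.0411 and 0.0493), where Bhlhe41 was not tested. In PH at the same hours 6 of 7 passed, against 48.7% of all genes, with Bhlhe40 (adjusted p = 0.08151) left out and Rora close to the threshold (adjusted p = 0.04855). Rora lost this call without any 1 of 18 of the 26 libraries (X1 replicates 1 to 6, X4 replicates 4 and 5, X10 replicates 1, 4, 5 and 6, X20 replicates 1, 2, 3 and 6, and X48 replicates 1 and 5), while Bhlhe40 passed without X48 replicate 3 (adjusted p = 0.0432). In PH at the same hours the cosine held 32.4% of the variance between groups for Rora and 24.7% for Bhlhe40. For the other members it held 75.1% to 95.6%. A test of the rhythms' difference between PH and sham passed for 0 of 7 members, against 1.04% of all genes. Before adjustment the limma p was below 0.05 for Dbp (0.01711, adjusted p = 0.1872) and Nfil3 (0.02365, adjusted p = 0.2112).

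From 28 to 72 h after PH all 7 members passed the rhythm test, against 37.4% of all genes, from 4 times of day only. The amplitude of Dbp was 2.71 ± 0.17, rank 4 of all genes, and that of Tef was 1.37 ± 0.08. Their peaks lay at ZT 11.6 ± 0.28 h and 12.9 ± 0.34 h, with Hlf again later at ZT 15.4 ± 1.11 h and an amplitude of 0.38 ± 0.07. Nfil3 peaked at ZT 0.619 ± 0.73 h with an amplitude of 0.98 ± 0.12. Bhlhe40 peaked at ZT 17.3 ± 0.97 h, away from its fits in the series that ran from 1 to 48 h. Those were ZT 3.36 ± 1.29 h after sham surgery and 5.81 ± 1.00 h after PH, neither past the test. The sampled times of day differ between this series and the other 2, so the shifts between them were not tested.

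**Figure D4:**
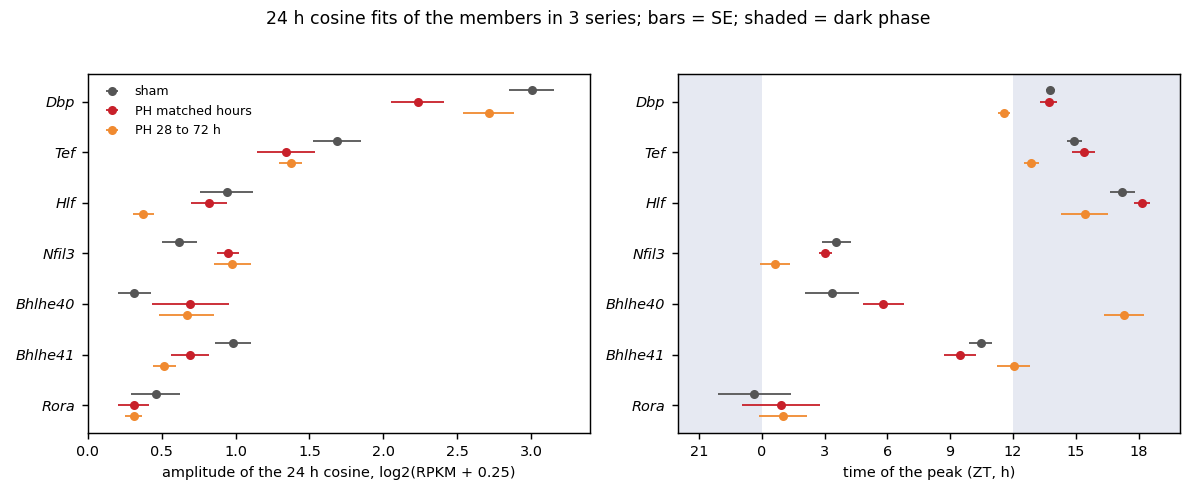
Amplitude (left, log2(RPKM + 0.25)) and time of the peak (right, ZT in hours, dark phase shaded) of the 24 h cosine fits of each member in the sham series, in PH at the same hours and in PH from 28 to 72 h, with bars of 1 SE. In all 3 series Dbp had the largest amplitude (2.23 to 3.00) and the peaks followed the order Dbp, Tef, Hlf. Both PH series include the X48 livers.

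At ZT2 on later days most members were near C0. In S48 against C0, Nfil3 (0.70 ± 0.20, adjusted p = 0.008894) and Bhlhe40 (1.46 ± 0.26, adjusted p = 3.796e-05) were higher without overlap, against 8.88% of all genes called. C0 replicates 4 to 6 were higher in Bhlhe40 (15.5, 13.1 and 10.8 RPKM) than the other C0 livers (5.96 to 9.65 RPKM). Against those 3 livers alone both calls were lost (Nfil3 0.55, adjusted p = 0.126, and Bhlhe40 0.91, adjusted p = 0.0624), and Hlf was called lower (-0.64, adjusted p = 0.0262). In X48, Bhlhe40 was higher (0.74 ± 0.22, adjusted p = 0.002735; 38.1% of all genes), and in X72 Bhlhe40 (0.99 ± 0.26, adjusted p = 0.001183) and Rora (0.54 ± 0.16, adjusted p = 0.003719; 33.2%). Against C0 replicates 4 to 6 alone neither Bhlhe40 call was kept, with 0.19 in X48 (adjusted p = 0.615) and 0.44 in X72 (adjusted p = 0.293). The median of all genes had moved up by 0.24 and 0.21 in these groups. With equal library medians Bhlhe40 in X48 (0.29, adjusted p = 0.219) and Rora in X72 (0.19, adjusted p = 0.285) were no longer called, and Tef (-0.70, adjusted p = 0.00077) and Hlf (-0.55, adjusted p = 0.00351) were lower in X48. Rora in X72 was also under the limit of 0.5 without C0 replicate 7 (0.48), C0 replicate 9 (0.49) or X72 replicate 3 (0.498). At 1 week 0 of 7 members were called against C0, where 16.9% of all genes were and the median of all genes was 0.12 higher, and the limma p before adjustment was below 0.05 for Rora alone (0.37 ± 0.16, adjusted p = 0.06871). Against C0 replicates 7 to 9 alone, Hlf (0.70, adjusted p = 0.0159) and Rora (0.77, adjusted p = 0.000377) were higher at 1 week. At 4 weeks 0 of 7 were called in X4W against C4W, where 0.065% of all genes were and no member had a limma p below 0.05 before adjustment, with 2 livers per group and changes between -0.46 and 0.18.

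Between the first and the second night after PH, at ZT22, Hlf was 0.67 ± 0.22 lower in X44 than in X20 (adjusted p = 0.0173), the 1 member called against 16.1% of all genes. X44 had 4.83, 4.24 and 3.49 RPKM and X20 between 5.49 and 7.89 RPKM. The call was lost without X44 replicate 3 (-0.56, adjusted p = 0.113), where Nfil3 was called lower (-0.66, adjusted p = 0.023). X44 came from only a part of the experimental periods of X20, so night and period cannot be fully told apart here. Between X72 and X48, 0 of 7 members were called by limma, against 5.96% of all genes, with a p below 0.05 before adjustment for Rora alone (0.43 ± 0.18, adjusted p = 0.1277).

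The core clock genes were taken as a list of 13, of which 12 were tested. Of all genes, 7.89% were called in C4 against C0, 43.3% in S4 against C4 and 45.6% in X4 against C4. In X4 against S4 and in X28 against C4 these shares were 8.64% and 32.7%. In C4 against C0, 5 rose and 4 fell, with Nr1d1 (3.08 ± 0.52) and Per3 (1.81 ± 0.16) higher and Arntl (-2.003 ± 0.19) and Npas2 (-1.99 ± 0.22) lower. In S4 against C4, 3 rose and 6 fell, and in X4 against C4, 4 rose and 8 fell, with a median of -0.57 and -1.19 (all genes -0.22 and -0.26). In X4 these included Nr1d1 (-3.25 ± 0.63), Nr1d2 (-2.45 ± 0.30) and Per3 (-2.22 ± 0.20) lower and Arntl (1.44 ± 0.23) higher. In X4 against S4, 2 rose and 5 fell, among them Nr1d2 (-1.65 ± 0.27) and Ciart (listed as Gm129, -1.75 ± 0.40) lower and Npas2 (1.40 ± 0.24) and Arntl (0.58 ± 0.21) higher. In X28 against C4, 1 rose and 5 fell, and Arntl was no longer called (-0.08 ± 0.23). In X10 against S10, Per3 was lower (-0.72 ± 0.17).

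Of 8 genes listed as known targets of the PAR bZIP factors, 3 rose and 4 fell in S4 against C4, and the same counts were found in X4 against C4, with medians of -0.84 and -1.07. Of all genes 43.3% and 45.6% were called in these contrasts, with medians of -0.22 and -0.26. Cyp2b10 (4.25 ± 0.65 in S4, 4.82 ± 0.73 in X4), Por, which passes electrons to cytochromes P450, (1.17 ± 0.26 and 1.25 ± 0.29) and Alas1, which starts heme synthesis, (1.85 ± 0.52 and 2.48 ± 0.58) were higher. Nr1i3, the CAR receptor, (-2.85 ± 0.34 and -2.77 ± 0.38), Cyp7a1, which limits bile acid synthesis, (-2.69 ± 0.62 and -3.31 ± 0.69) and the near-identical copies Cyp2a4 and Cyp2a5, whose reads may be split, were lower. At 4 h 0 of the 8 were called between PH and sham by limma, with changes between -0.64 and 0.62. At 10 h, where Dbp and Tef were lower after PH, Cyp7a1 (-3.63 ± 0.60), Cyp2a4 (-1.61 ± 0.46) and Cyp2a5 (-1.87 ± 0.46) were lower and the other 5 were not called. At 20 h Cyp2a4 (-1.70 ± 0.46) and Cyp2a5 (-2.17 ± 0.46) were lower after PH as well and the other 6 were not called. Between PH and sham, 8.64% of all genes were called at 4 h, 7.02% at 10 h and 7.11% at 20 h.

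Across the 19 group means, Dbp and Tef had a Pearson r of 0.90 and each was opposite to Nfil3 (-0.85 and -0.80), while Hlf had 0.45 with Dbp and 0.66 with Tef. The groups share the time of day and the hour of surgery, so these values are a description. Of 6823 genes compared, Per3 was most like both Dbp (r = 0.92) and Tef (r = 0.94), followed for Dbp by Nr1d2 (0.84) and 2010107H07Rik (0.83). Arntl was most opposite to Dbp (r = -0.92). Bhlhe40 was most like Per1 (0.87), a clock gene that also responds early to signals. For Nfil3 these genes were BC057022 (0.87), Tars (0.87) and Slc30a10 (0.86), for Hlf Arhgef40 (0.93), for Bhlhe41 Bnip3 (0.79) and for Rora Ankrd33b (0.89).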

How the data were processed

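The authors sequenced poly(A) RNA of individual livers in strand-specific libraries, with single reads of 100 nt, and deposited 1 table of log2 RPKM values for 37991 genes (mm9), in which genes without reads stand at -14.29 (52.9% of values). The processing notes name TopHat2 2.0.13, Bowtie2, SAMtools 0.1.19 and featureCounts. Depth was estimated from the step that 1 read makes among low deposited values. Of 84 value columns, 4 match no labelled sample and were not used, and 7 labelled samples were not analysed here. Gene-wise models of 19 group means were fitted to log2(RPKM + 0.25) with limma 3.58.1 (R 4.3.3, prior variance with a trend) for the 15396 genes with log2 RPKM above -1.5 in at least 1 library. Genes were called at a Benjamini-Hochberg adjusted p below 0.05 over these genes and a log2 fold change beyond 0.5. The interaction of surgery and time and the 24 h cosine fits were F tests of the same kind. The scripts were tested on simulated data. The 7 members and the lists (13 core clock genes, 8 targets, cell markers) were chosen by name with earlier results of these data known, and the genes most alike were the 3 with the highest correlation of group means per member. Values of 1 core clock gene are not reported here, though the list counts include it. Alternatives were other pseudocounts, filters and scalings, no trend, a replicate block, fits of the 2 groups alone, subsets of replicates, C0 added as hour 0 and each library left out. Promoter windows came from RefSeq (GRCm38.p6) and were not converted to mm9. The labels do not say that equal replicate numbers mark the same batch.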

Additional observations from a re-analysis of the deposited data

Results flagged for a closer look

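In 56 combinations of a member and a group of 4 to 10 livers tested for a sample far from the others, 2 samples stood apart, where chance gives about 1 in 20. Dbp in X10 replicate 6 was 17.8 RPKM against 5.56 to 8.47 RPKM in the other X10 livers, still below S10. Rora in X36 replicate 2 was 4.70 RPKM against 3.78 to 4.02 RPKM in the other X36 livers. The difference between PH and sham surgery changed with the hour, by the interaction test of limma, for Dbp (adjusted p = 0.00633), Tef (adjusted p = 4.02e-07), Nfil3 (adjusted p = 0.0317), Bhlhe40 (adjusted p = 0.000935) and Bhlhe41 (adjusted p = 0.0243).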

How the results depend on the processing

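Of 119 fold changes of members, 33 were called. Under other settings these gave 320 values, of which 30 lost the call and 0 changed sign, and with single libraries left out 28 of 292 lost it and 0 changed sign. Among the 86 not called, 57 of 811 values had another sign, none of them called. The number of members called in X10 against S10 was 1 with a pseudocount of 0.05 RPKM, without a filter and without a trend (Dbp), and 1 with replicates 4 to 6 only (Nfil3, with Dbp lost). In X72 against C0 it was 1 with a pseudocount of 1 RPKM, with equal library medians, with the replicate block and with the 2 groups alone, and 0 with replicates 4 to 6. In X4 against S4 it was 1 (Tef, with Dbp lost) with a pseudocount of 1 RPKM and with the 2 groups alone. Without a filter it was 0 in X48 against S48 and 3 for the interaction. With equal library medians it was 2 in X48 against C0 (Tef and Hlf), 4 in X48 against S48, 2 in X44 against X20 and 1 in X72 against X48. With the 2 groups alone it was 0 in X28 against C4, where Dbp had an adjusted p of 0.0524, and 0 in X1 against S1. With replicates 1 to 3 it was 2 in X1 against S1 and in X20 against S20, and with replicates 4 to 6 it was 1 in S48 against C0 (Hlf), 2 in X48 against C0 (Tef and Hlf) and 0 in X1 against S1 and X20 against S20. With C0 replicates 7 to 9 only it was 2 in X48 against C0 and in X1W against C0. The causes were not tested.

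With 1 library left out the number called ranged from 1 to 5 in X28 against C4, 1 to 3 in X4 against S4, 1 to 2 in X10 against S10 and in X72 against C0, 0 to 1 in X20 against S20 and in X48 against S48, 3 to 6 in X28 against X4, 4 to 5 in C4 against C0, S4 against C4 and X4 against C4, and 3 to 5 for the interaction. It ranged from 5 to 6 for the sham rhythm and 5 to 7 for that of PH at the same hours. Deviations of samples with the same replicate number had correlations of -0.186 to 0.273, so the numbers were not taken as pairs. The replicate block added Rora in C4 against C0 (-0.69), Nfil3 in X10 against S10 (-0.60) and Hlf in X28 against X4 (0.81) and removed Rora in X72 against C0 (0.29), Bhlhe40 in X28 against X4 (-0.81) and the rhythm of Rora after PH. Bhlhe41, with 2 to 198 reads, and Dbp at its low hours, with as few as 5 reads, were limited by depth. Bhlhe41 was not tested with a mean log2 RPKM above 0 as the filter.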
